A study of Homo sapiens with 12 samples.

Results

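Endothelins and adrenomedullins are peptide hormones best known for acting on blood vessels, and 9 genes of the 2 systems were followed here: the ligand genes EDN1, EDN2, ADM and ADM2, the converting enzyme gene ECE1, and the receptor genes EDNRA, EDNRB, CALCRL and RAMP1. They were taken by symbol from the tables of 2 human esophageal carcinoma lines, KYSE150 (30703 genes) and KYSE410 (30106 genes, 26115 of them in both tables). Rows were found for 7 of the 9 in KYSE150 (all but EDNRB and RAMP1) and for 8 in KYSE410 (all but EDNRB); the expression of EDNRB was not analysed here. The members were chosen by measured values as well as by function: the large hypoxic differences of EDN2 and ADM in these same libraries were known beforehand. The levels of all members in low and normal oxygen, and the difference of those responses between lines, are therefore given as a description, with standard errors and no test.

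Both lines are wild type per the labels, which list no drug. Cells were kept at 21% oxygen (normoxia) or at 0.5% oxygen (hypoxia), and polyadenylated RNA was sequenced from 3 libraries for each line and oxygen level, 12 in all. Hypoxia is labelled 48 h and normoxia 0, whereas the design text has 48 h under either oxygen level, so the time in culture of the normoxic cells is not settled. Nothing says that the replicates were separate cultures, so any p-value measures the spread among these libraries, which could be technical. Both are cell lines in culture, without the vessels on which these peptides act in a tissue.

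Endothelins are made as long precursors, trimmed by furin-like convertases to an inactive intermediate, and cut to the active peptide by endothelin-converting enzyme, encoded by ECE1. The active peptides bind the G protein-coupled receptors ETA (EDNRA) and ETB (EDNRB), of which ETA raises cell calcium and constricts vessels. Adrenomedullin and adrenomedullin 2, also called intermedin, belong to the calcitonin family, dilate vessels and raise cyclic AMP. Their C-terminus is amidated by the enzyme PAM. Their receptor is CALCRL, which reaches the cell surface only with a partner protein of the RAMP family. ADM is a well-known target of hypoxia-inducible factor (HIF), and EDN1 and EDN2 have been described as HIF-responsive in other cells.

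The promoter sequences of the 4 ligand genes are shown because these genes had the largest differences between oxygen levels or between lines. RefSeq (GRCh38.p14) gave 14 windows of 250 bases upstream of a start site for 8 of the 9 genes; RAMP1 had no entry. Each was searched on both strands for ACGTG and GCGTG, the core letters of the HIF response element, for TGANTCA, the AP-1 site, and for TGATGNAA, a form of the ATF4 composite site. ACGTG and GCGTG differ only in their first letter, and a match on one strand can overlap a match on the other. Sequences run 5′ to 3′ on the gene's strand, with a match in capitals. EDN2 (chr1:41484684-41484933, minus strand) and ADM2 (chr22:50481293-50481542, plus strand) are shown over the whole window. For ADM (chr11:10304960-10304989, plus strand) 30 bases around its only match are shown, and for EDN1 (chr6:12290226-12290255, plus strand) 30 bases around 1 of several matches, the one in the window next to the GENCODE start.
EDN2: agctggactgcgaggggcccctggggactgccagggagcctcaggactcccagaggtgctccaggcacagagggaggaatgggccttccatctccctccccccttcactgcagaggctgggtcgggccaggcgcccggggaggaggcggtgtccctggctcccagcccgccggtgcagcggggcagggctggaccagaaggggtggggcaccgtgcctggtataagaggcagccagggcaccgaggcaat
ADM2: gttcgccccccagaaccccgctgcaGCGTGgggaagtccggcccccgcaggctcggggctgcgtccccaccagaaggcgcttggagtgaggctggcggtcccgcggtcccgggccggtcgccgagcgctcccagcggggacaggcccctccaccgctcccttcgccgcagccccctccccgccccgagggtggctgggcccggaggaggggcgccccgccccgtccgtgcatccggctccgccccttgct
EDN1: tatctccggctgCACGTtgcctgttggtga
ADM: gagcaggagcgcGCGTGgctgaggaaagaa

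The EDN2 window held no match to any of the 4 motifs. ADM2 held GCGTG at bases -225 to -221 from the start, and ADM held it at -101 to -97. The ADM stretch also lies inside exons of longer ADM transcripts in GENCODE 29. In EDN1 the capitals CACGT are ACGTG read on the opposite strand, at -123 to -119 of the third of its 3 windows. The first EDN1 window held ACGTG on the opposite strand at -240 to -236 and at -93 to -89, and GCGTG at -47 to -43. Over 35116 RefSeq promoter windows of the same length, 18.5% held ACGTG, 32.2% GCGTG and 43.2% either, so these matches are common. Either was found in 9 of the 14 member windows, from 6 genes. TGANTCA, present in 6.57% of all windows, was in 0 of the 14. TGATGNAA, present in 3.14%, was in 1, that of CALCRL at -75 to -68. A match is a string of letters and not evidence that a factor binds there.

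Values were taken to be FPKM, a count of fragments divided by transcript length and library size, so levels of different genes can be set side by side. Changes were fitted on the log2(FPKM + 1) scale wherever a gene averaged 1 FPKM or more in its table. Of the 9 genes, 6 passed in KYSE150 (EDN1, EDN2, EDNRA, ECE1, ADM and ADM2) and 3 in KYSE410 (EDN1, ECE1 and ADM). In KYSE150, EDN2 and ADM2 passed only through the group in which they are high, so no count over the members that passed is used as support. Levels set across lines assume that the separately deposited tables share a scale. KYSE150 normoxia replicate 2 stood apart, with an SD of log2 differences from its group of 0.339 and 0.369, where the remaining pairs within groups gave 0.153 to 0.197. The numbers on the sample names were 50 to 55 in KYSE150, but 38 to 40 in KYSE410 normoxia and 56 to 58 in KYSE410 hypoxia, so in KYSE410 oxygen and a library set inferred from those numbers cannot be told apart.

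EDN2, the gene for endothelin 2 (chromosome 1, 41478775 to 41484673, minus strand), went from near 0 to a high level in KYSE150 and stayed close to 0 in KYSE410. In KYSE150 normoxia it was at 0.394, 0.605 and 0.165 FPKM in replicates 1 to 3. In KYSE150 hypoxia it was at 44.7, 58.4 and 48.9 FPKM. Every hypoxic library was far above every normoxic one. Of all genes tested in KYSE150, 69.6% had groups that did not overlap (27.0% higher and 42.6% lower in hypoxia), and in KYSE410 84.6% did (31.9% and 52.7%). Since the choice of members used this contrast, nothing is read from non-overlap alone. For EDN2 the means, 0.388 ± 0.2201 and 50.7 ± 7.01 FPKM (SD, n = 3), were 130.5-fold apart. The log2 difference of 5.22 ± 0.14 (SE) ranked 1 of 12692 genes tested in that line, which is part of why the gene was chosen. Within a library, EDN2 went from rank 13762 to 17371 by FPKM in normoxia to rank 940 to 1295 in hypoxia.

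In KYSE410, EDN2 was listed at 0 FPKM in all 3 normoxic libraries. Its hypoxic libraries held 0.372, 0.102 and 0.0311 FPKM, each above 0 and each below the KYSE150 normoxic maximum. No fold is given against a group listed at 0, and the gene did not reach the fitting limit in that line alone. In the joint fit of both lines its response differed by -5.01 ± 0.19 on the log2 scale (KYSE410 minus KYSE150), the lowest of 12653 genes. Within hypoxia the same difference of levels was -5.47 ± 0.14. The order of its levels was KYSE150 hypoxia, then KYSE150 normoxia, then both KYSE410 groups, and KYSE410 hypoxia overlapped KYSE150 normoxia.

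EDN1, the gene for endothelin 1 (chromosome 6, 12290363 to 12297194, plus strand), the main vasoconstrictor of the family, went the other way in KYSE150. Its normoxic libraries were at 25.5, 30.3 and 24.6 FPKM and its hypoxic libraries at 14.6, 12.4 and 13.7 FPKM. The groups did not overlap. The normoxic mean of 26.8 ± 3.04 FPKM was 1.97-fold the hypoxic mean of 13.6 ± 1.11, a log2 difference of -0.93 ± 0.10. The highest normoxic value came from replicate 2, the library that stood apart from its group, and without it the difference was -0.84.

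KYSE410 had little EDN1 at either oxygen level. Values were 1.36, 1.84 and 1.91 FPKM in normoxia and 1.504, 0.894 and 1.19 with low oxygen. The 2 groups overlapped, since hypoxia replicate 1 was above normoxia replicate 1. The log2 difference was -0.30 ± 0.12, close to the median of -0.21 over all 12054 genes tested in that line. The difference of the responses, KYSE410 minus KYSE150, was 0.62 ± 0.17.

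The endothelin gene that supplied most of the message in KYSE150 changed from EDN1 in normoxia to EDN2 in hypoxia. The lowest hypoxic EDN2 value, 44.7 FPKM, was above the highest normoxic EDN1 value, 30.3 FPKM. The change of majority thus did not need the fall of EDN1. EDN2 made up 1.52%, 1.96% and 0.667% of the summed EDN1 and EDN2 FPKM in the KYSE150 normoxic libraries. In hypoxia the share was 75.4%, 82.5% and 78.1%, so all 3 libraries had become EDN2-dominated. The sum itself was 27.2 ± 3.25 FPKM in normoxia and 64.3 ± 5.90 in hypoxia. In KYSE410 the sum was 1.70 ± 0.303 and 1.36 ± 0.458 FPKM, EDN1 remained the larger in every library, and EDN2 held 19.8%, 10.2% and 2.56% in hypoxia. These sums add transcripts, not peptides; secreted endothelin was not measured.

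**Figure D1:**
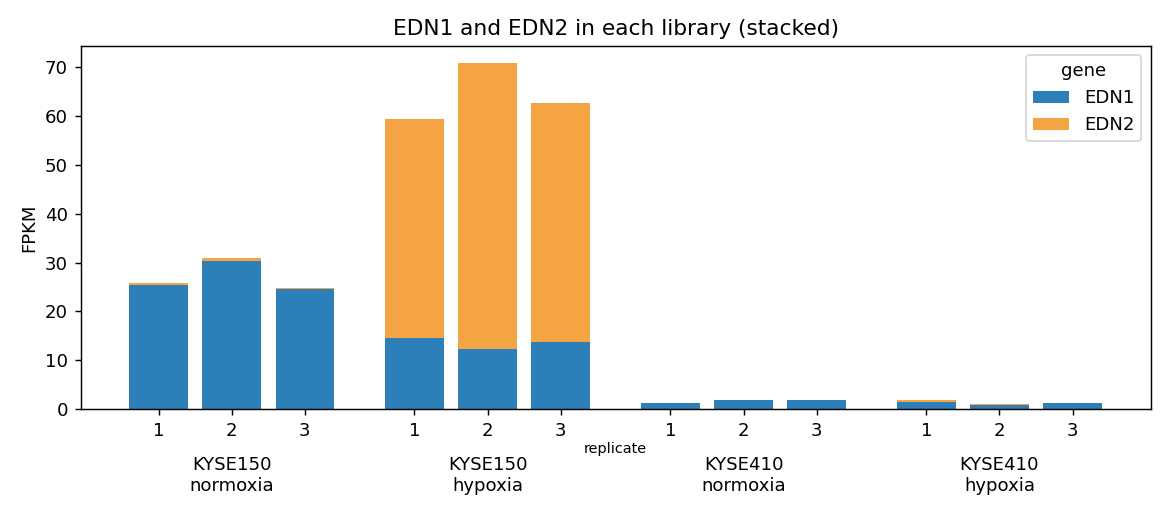
Stacked bars give the FPKM of EDN1 (blue) and EDN2 (orange) in each of the 12 libraries, 3 per line and oxygen level. In KYSE150 the bars turn from nearly all EDN1 in normoxia to 75.4% to 82.5% EDN2 in hypoxia, while the KYSE410 bars stay below 2 FPKM.

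ADM, which encodes adrenomedullin (chromosome 11, 10304680 to 10307397, plus strand), was higher in hypoxia in both lines, from nearly the same starting level. KYSE150 held 16.1, 21.1 and 18.1 FPKM in normoxia and 184.5, 198 and 174 FPKM in hypoxia. The means of 18.4 ± 2.53 and 185.5 ± 11.7 FPKM were 10.1-fold apart, a log2 difference of 3.27 ± 0.11 that ranked 13 of 12692 genes. KYSE410 held 18.2, 18.9 and 19.4 FPKM in normoxia and 464, 452.0 and 480.5 FPKM in hypoxia. Here the means of 18.9 ± 0.607 and 465.5 ± 14.3 FPKM were 24.7-fold apart, a log2 difference of 4.55 ± 0.04 that ranked 3 of 12054.

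In neither line did the ADM groups overlap. The response was larger in KYSE410 by 1.28 ± 0.12 on the log2 scale. Among the genes of a library, ADM stood at rank 252 to 276 in KYSE150 hypoxia and at rank 140 to 146 in KYSE410 hypoxia, from 3072 to 3840 and 3282 to 3462 in normoxia. The order of levels was KYSE410 hypoxia, KYSE150 hypoxia and then the 2 normoxic groups, whose values interleaved. Per unit length, ADM was the most abundant of the members in hypoxia in both lines.

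ADM2, which encodes adrenomedullin 2 (chromosome 22, 50481556 to 50486440, plus strand), moved opposite to ADM in both lines. In KYSE150 it was at 4.98, 5.37 and 5.78 FPKM in normoxia and at 0.373, 0.298 and 0.451 FPKM in hypoxia. The normoxic mean of 5.38 ± 0.398 FPKM was 14.4-fold the hypoxic mean of 0.374 ± 0.0765. The log2 difference was -2.21 ± 0.09, the 63rd lowest of 12692, and no normoxic library came near a hypoxic one.

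In KYSE410, ADM2 was at 1.22, 1.28 and 1.65 FPKM in normoxia. Its hypoxic libraries 1 and 2 were listed at 0 and the third at 0.0160 FPKM, all below every normoxic value. No fold is given. The joint fit put the difference of responses at 0.97 ± 0.12, a smaller log2 fall in KYSE410, but with a pseudocount of 0.1 in place of 1 it was -0.27. Which line lost more ADM2 in proportion therefore depends on the pseudocount. ADM2 has been described as a target of ATF4, the transcription factor of the amino acid response. Of 8 known ATF4 targets, 7 fell and 1, DDIT4, rose in each line (limma, adjusted p under 0.05), with a median log2 change of -2.84 in KYSE150 and -2.51 in KYSE410 against -0.13 and -0.21 over all genes. Of 8 known HIF targets, 7 rose in each line, with medians of 2.88 and 2.75; the exception was VEGFA, which was not called in KYSE150 and fell in KYSE410. With median-of-ratios scaling 8 HIF targets rose in KYSE150, and in KYSE410 7 rose and 0 fell. Of all genes tested, 23.5% were called higher and 38.8% lower in KYSE150, and 31.2% and 51.9% in KYSE410. CHAC1 and ANKRD37 in both lines, and SESN2 in KYSE410, passed the fitting limit only through the group in which they are high. Their changes are therefore descriptions without a test, although they are among the genes counted. Both lists hold genes already known to move in these libraries, so they are set beside ADM2 and ADM as context only. Nothing is read from the counts.

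**Figure D2:**
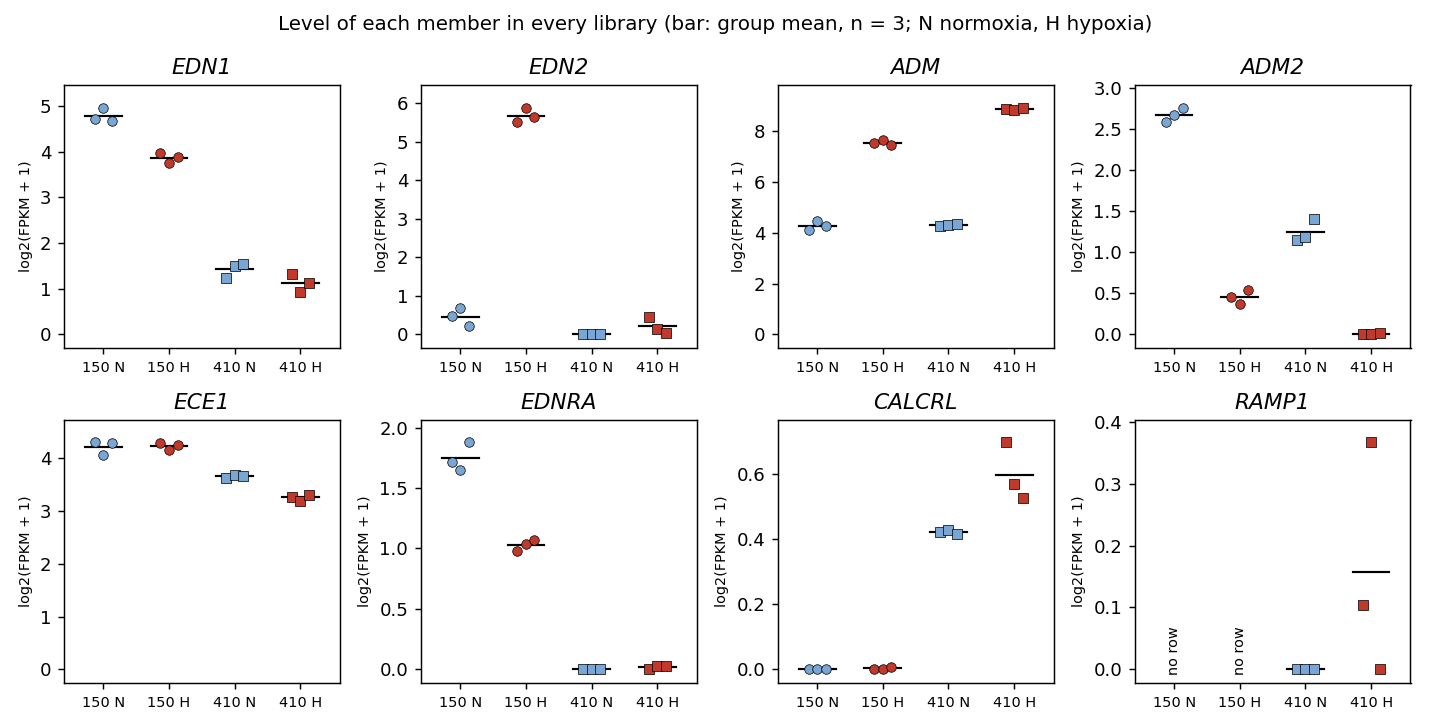
Each panel gives log2(FPKM + 1) of one gene in every library, with KYSE150 as circles and KYSE410 as squares, normoxia in blue and hypoxia in red, and a bar at the mean of each group of 3; the vertical scale differs between panels. EDN2 is high in KYSE150 hypoxia alone, ADM is higher in hypoxia in both lines, ADM2 is lower in hypoxia in both, and RAMP1 has no row for KYSE150.

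ECE1, the gene for endothelin-converting enzyme 1 (chromosome 1, 21217247 to 21345572, minus strand), differed little with oxygen. KYSE150 libraries were at 18.8, 15.7 and 18.5 FPKM in normoxia and at 18.5, 16.9 and 18.1 in hypoxia, with overlapping groups and a log2 difference of 0.02 ± 0.09. KYSE410 libraries were at 11.4, 11.8 and 11.8 FPKM in normoxia and at 8.67, 8.17 and 8.95 in hypoxia. These groups did not overlap, with means of 11.7 ± 0.230 and 8.60 ± 0.394 FPKM and a log2 difference of -0.40 ± 0.05. Depending on how the libraries were scaled, that difference ranged from -0.62 to -0.09. ECE1 overlaps 2 antisense genes in GENCODE 29 and the strand setting is not given in the sources used here, so reads of the partners could not be told apart.

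EDNRA, the gene for the ETA receptor (chromosome 4, 147480917 to 147544954, plus strand), was expressed at a low level in KYSE150 and hardly listed in KYSE410. In KYSE150 it was at 2.29, 2.13 and 2.68 FPKM in normoxia and at 0.967, 1.05 and 1.104 FPKM in hypoxia. Hypoxic values were below all normoxic ones, the means of 2.37 ± 0.281 and 1.04 ± 0.0687 FPKM were 2.28-fold apart, and the log2 difference was -0.72 ± 0.10. In KYSE410 it was listed at 0 in all 3 normoxic libraries and at 0, 0.0175 and 0.0176 FPKM in hypoxia. EDNRA overlaps a processed pseudogene of GTF2F2 on the same strand. In KYSE150 hypoxia a low receptor message thus stood beside a summed ligand message above that of normoxia.

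CALCRL, the gene for the main receptor protein of adrenomedullin, was below 1 FPKM in every library. It lies on chromosome 2 (187343129 to 187448460, minus strand) and was listed at 0 in 5 of the KYSE150 libraries and at 0.00534 FPKM in hypoxia replicate 3. KYSE410 held 0.339, 0.346 and 0.334 FPKM in normoxia, and its hypoxic libraries 0.621, 0.483 and 0.442, without overlap and with means 1.52-fold apart. CALCRL overlaps an antisense gene and a processed pseudogene of GAPDH, both on the opposite strand. With the strand setting unknown, reads of these partners could not be told apart from those of CALCRL. RAMP1 (chromosome 2, 237858893 to 237912114, plus strand), whose product makes CALCRL a receptor for calcitonin gene-related peptide, was listed at 0 in KYSE410 normoxia and at 0.0750, 0.290 and 0 FPKM in hypoxia. RAMP2 and RAMP3, whose products make CALCRL an adrenomedullin receptor, were not analysed here. At such values, and without read counts, no change was read.

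**Figure D3:**
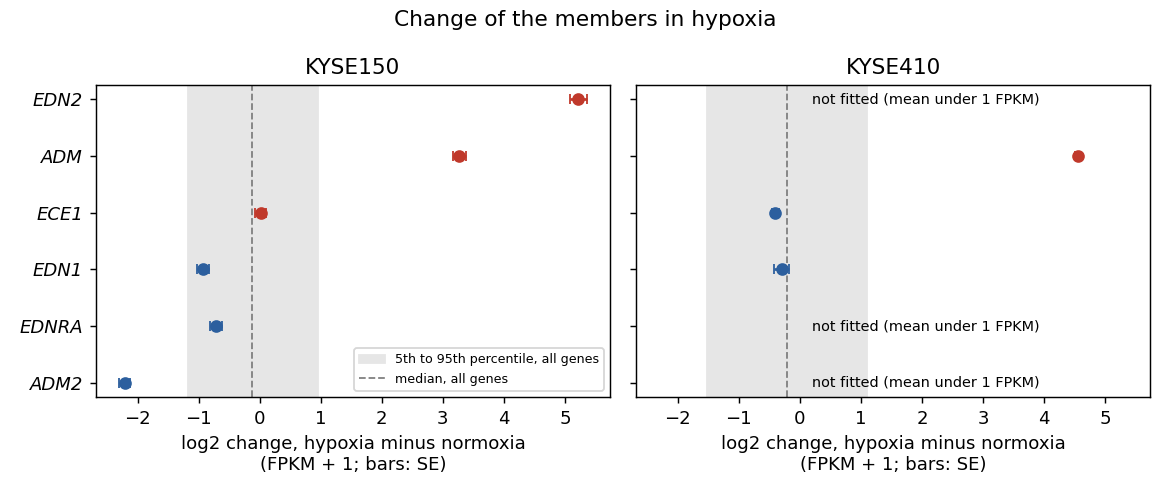
Points give the log2 difference of hypoxia minus normoxia for the members fitted in each line, with SE bars; red marks a value above 0 and blue one below 0. The grey band holds the 5th to 95th percentile of all genes tested (-1.17 to 0.95 in KYSE150, -1.52 to 1.10 in KYSE410); EDN2, ADM and ADM2 lie outside it in KYSE150 and ADM in KYSE410.

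In KYSE150, 62.3% of all genes tested were called at a limma adjusted p under 0.05 (23.5% higher, 38.8% lower), and in KYSE410 83.1% (31.2% and 51.9%). Of the members, 2 of 6 were called higher and 3 lower in KYSE150, and 1 of 3 higher and 2 lower in KYSE410, from which nothing is read. Between lines, 63.3% of 12653 genes were called for a difference in response (27.3% higher and 36.0% lower in KYSE410). Of those calls 43.1% were higher, against 50.3% with median-of-ratios scaling and 28.2% with a common sum. Of 8 endothelial markers 6 had a row in either table (KDR and EMCN had none) and 0 averaged 1 FPKM; their sum was at most 0.2084 FPKM in any library. Fibroblast markers summed to 5.65 to 8.20 FPKM in KYSE150 and 0.564 to 1.67 in KYSE410, and smooth muscle markers to 2.004 to 3.81 in all. Of the 3 leukocyte markers with a row in each line, CD68 alone exceeded 1 FPKM and was higher in hypoxia (16.3 and 28.4 in KYSE150, 31.5 and 83.4 in KYSE410), with PTPRC at or near 0; its part in any result was not tested. Of 10 squamous or other epithelial markers, 3 averaged at least 1 FPKM in each KYSE150 group and 8 in each KYSE410 group. KRT8 and KRT18 averaged 289 to 370 FPKM in the KYSE150 groups. In KYSE410 KRT8 was at 808 in normoxia and 476 in hypoxia, and KRT18 at 963 and 472. EPCAM was at 4.495 FPKM in KYSE150 normoxia and 6.83 in hypoxia, against 98.3 and 77.8 in KYSE410. CDH1 was at 0.372 and 0.102, against 86.9 and 46.8. KRT19 was at most 0.152 in any group. Squamous markers were near 0 in KYSE150 (TP63 at most 0.283, KRT5 at most 0.0777). In KYSE410 TP63 was at 34.2 FPKM in normoxia and 50.7 in hypoxia, KRT5 at 168 and 477, and KRT14 at 13.1 and 62.9, while SOX2 was at most 0.0175. The part of these markers in the member results was not tested. Library totals in KYSE410 were 351501 to 356994 FPKM in normoxia and 415926 to 425094 in hypoxia, without overlap. In KYSE150 the totals were 366156 to 413967 FPKM in normoxia and 377909 to 382990 in hypoxia. Same-group libraries correlated at r = 0.9786 to 0.9964. Fewer cells of a type and less RNA per cell cannot be told apart in such bulk libraries.

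The normoxic levels of the lines were compared as a further contrast. It uses the same normoxic libraries as the responses known when the genes were chosen, so it is not independent of that choice. With this limit, the contrast was tested for EDN1, ECE1 and ADM, which pass the fitting limit without their highest group. Of all genes 79.2% were called, 40.4% higher and 38.8% lower in KYSE410. The log2 difference, KYSE410 minus KYSE150, was -3.36 ± 0.12 for EDN1 (limma, adjusted p = 5.131e-11) and -0.56 ± 0.07 for ECE1 (adjusted p = 1.063e-05). ADM2 and EDN2 entered the joint fit only through the group in which each is high, so their differences of -1.42 ± 0.08 and -0.46 ± 0.14 are descriptions without a test, and that of EDN2 ranged from -2.18 to -0.25 over the alternatives. For ADM the difference of 0.04 ± 0.08 did not pass (adjusted p = 0.6706), and the largest difference that leaving out a library gave was 0.14. The 24.7-fold and 10.1-fold hypoxic differences of ADM thus started from levels that could not be separated, while EDN1 differed between the normoxic libraries of the lines. Those libraries carry numbers 50 to 52 in KYSE150 and 38 to 40 in KYSE410. Line and the inferred library set therefore cannot be told apart in this contrast.

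Other genes of these pathways were read from 4 lists of genes for peptide processing, related ligands and receptors, G protein signalling, and other vasoactive systems. Over the 4 lists, 12 genes rose and 14 fell of 40 tested in KYSE150, a called share of 65.0% against 62.3% of all genes. In KYSE410, 12 rose and 17 fell of 39, a called share of 74.4% against 83.1%. The first share was near its background and the second below it, and neither difference was tested.

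Of 13 genes that make, amidate or degrade such peptides, 5 were tested in KYSE150 (2 rose, 2 fell) and 6 in KYSE410 (2 rose, 3 fell), with median log2 changes of 0.00 and -0.46. PAM, the enzyme that amidates adrenomedullin, rose in both lines. It went from 12.8 ± 0.420 to 50.6 ± 1.21 FPKM in KYSE150 (log2 change 1.91 ± 0.07, limma adjusted p = 7.670e-07) and from 17.9 ± 2.44 to 49.5 ± 0.438 in KYSE410 (1.42 ± 0.08, adjusted p = 6.996e-07). No hypoxic library overlapped a normoxic one in either line. FURIN, a convertase that cuts the endothelin precursors, was at 23.0 and 23.1 FPKM in KYSE150 and fell in KYSE410 from 12.02 ± 0.109 to 6.78 ± 0.384 FPKM (-0.74 ± 0.05, adjusted p = 1.760e-06; -0.43 with quantile normalization). PCSK7, another convertase, fell in both lines (-0.46 ± 0.08 and -0.79 ± 0.07, the latter -0.47 with quantile normalization), as did IDE, an insulin- and peptide-degrading protease (-0.43 ± 0.11 and -0.91 ± 0.08; adjusted p at most 0.0089). PCSK6 rose by 0.40 ± 0.12 in KYSE150 (adjusted p = 0.0181), a call lost without hypoxia replicate 1 or 3 (adjusted p = 0.0605 and 0.0604).

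Of 11 other family genes, 8 had a row in KYSE150 and 6 in KYSE410. Most of those with a row were too low to fit, and 2 were tested in KYSE150 and 1 in KYSE410. CRCP, a small protein first described as a component of the receptor for calcitonin gene-related peptide and also a subunit of RNA polymerase III, fell in both lines, with log2 changes of -0.54 ± 0.07 in KYSE150 (limma adjusted p = 4.143e-04) and -1.12 ± 0.04 in KYSE410 (adjusted p = 2.455e-08). In KYSE410 it went from 58.6 ± 1.72 to 26.4 ± 0.292 FPKM. ACKR3, a scavenging receptor that binds adrenomedullin, was at 7.17 ± 0.437 FPKM in KYSE150 normoxia and 6.05 ± 0.692 in hypoxia and was not called. It was named after its values were seen, as a tested gene of this short list. EDN3 was not analysed here.

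Below the receptors, 25 of 33 genes for G proteins, phospholipase C, adenylyl cyclases, calcium release, protein kinase A and receptor desensitization were tested in each line. In KYSE150 8 rose, 7 fell and 10 were not called, with a median log2 change of 0.00. ADCY3 and ADCY9, adenylyl cyclases, fell (-0.98 ± 0.08 and -0.92 ± 0.15), whereas ADCY6 rose by 0.87 ± 0.09 and PLCB3, a phospholipase C, by 0.81 ± 0.07 (limma, adjusted p at most 0.0010). In KYSE410 7 rose, 11 fell and 7 were not called, with a median of -0.05. GNA12, a G protein alpha subunit, fell (-1.36 ± 0.06), as did PRKAR2A, a protein kinase A regulatory subunit (-1.06 ± 0.05), and ADCY9 (-0.84 ± 0.07, limma adjusted p at most 8.815e-06). GRK3, a receptor kinase, had a log2 difference of -1.30 ± 0.07, or -1.96 with a pseudocount of 0.1. GRK3 passed the fitting limit in KYSE410 only through normoxia. Its change is therefore a description without a test, although it is among the genes counted as fallen. This KYSE410 split moved with scaling, to 13 against 11 with median-of-ratios scaling and to 5 against 16 with a common sum. Median-of-ratios scaling moved the median of all genes from -0.13 and -0.21 to 0.00 in KYSE150 and KYSE410, and a common sum moved it to -0.42 in KYSE410. The share of all calls that were higher went from 37.7% to 50.6% in KYSE150 under the median of ratios, and in KYSE410 from 37.6% to 50.1%, or to 26.8% with a common sum.

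Among 32 other vasoactive genes, 8 were tested in KYSE150 (2 rose, 4 fell) and 7 in KYSE410 (3 rose, 2 fell), with medians of -0.25 and 0.09. APLN, the ligand of the apelin receptor, was higher in hypoxia in both lines. In KYSE150 it went from 0.714 ± 0.0264 to 1.59 ± 0.118 FPKM (0.59 ± 0.09, or 1.05 with a pseudocount of 0.1). In KYSE410 it went from 0.816 ± 0.252 to 6.09 ± 0.135 FPKM (1.97 ± 0.10). APLN passed the fitting limit in each line only through its hypoxic group. Its changes are therefore descriptions without a test, although it is among the genes counted as risen. PTGS2, the inducible cyclooxygenase, rose from 2.34 ± 0.346 to 8.24 ± 0.266 FPKM in KYSE410 (1.47 ± 0.08, limma adjusted p = 4.615e-07). Its rise of 0.42 ± 0.12 in KYSE150 (adjusted p = 0.0151) was lost without hypoxia replicate 2 or 3 (adjusted p = 0.0570 and 0.0561). PTGES, a prostaglandin E synthase, fell in both (-1.10 ± 0.09 and -0.83 ± 0.06, adjusted p at most 3.163e-05). AGT, the angiotensin precursor, fell from 9.50 ± 0.217 to 2.24 ± 0.164 FPKM in KYSE150 (-1.70 ± 0.08, adjusted p = 2.794e-06). ADORA2B, an adenosine receptor, fell from 25.2 ± 1.02 to 6.59 ± 0.321 FPKM in KYSE410 (-1.78 ± 0.05, adjusted p = 1.468e-08).

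**Figure D4:**
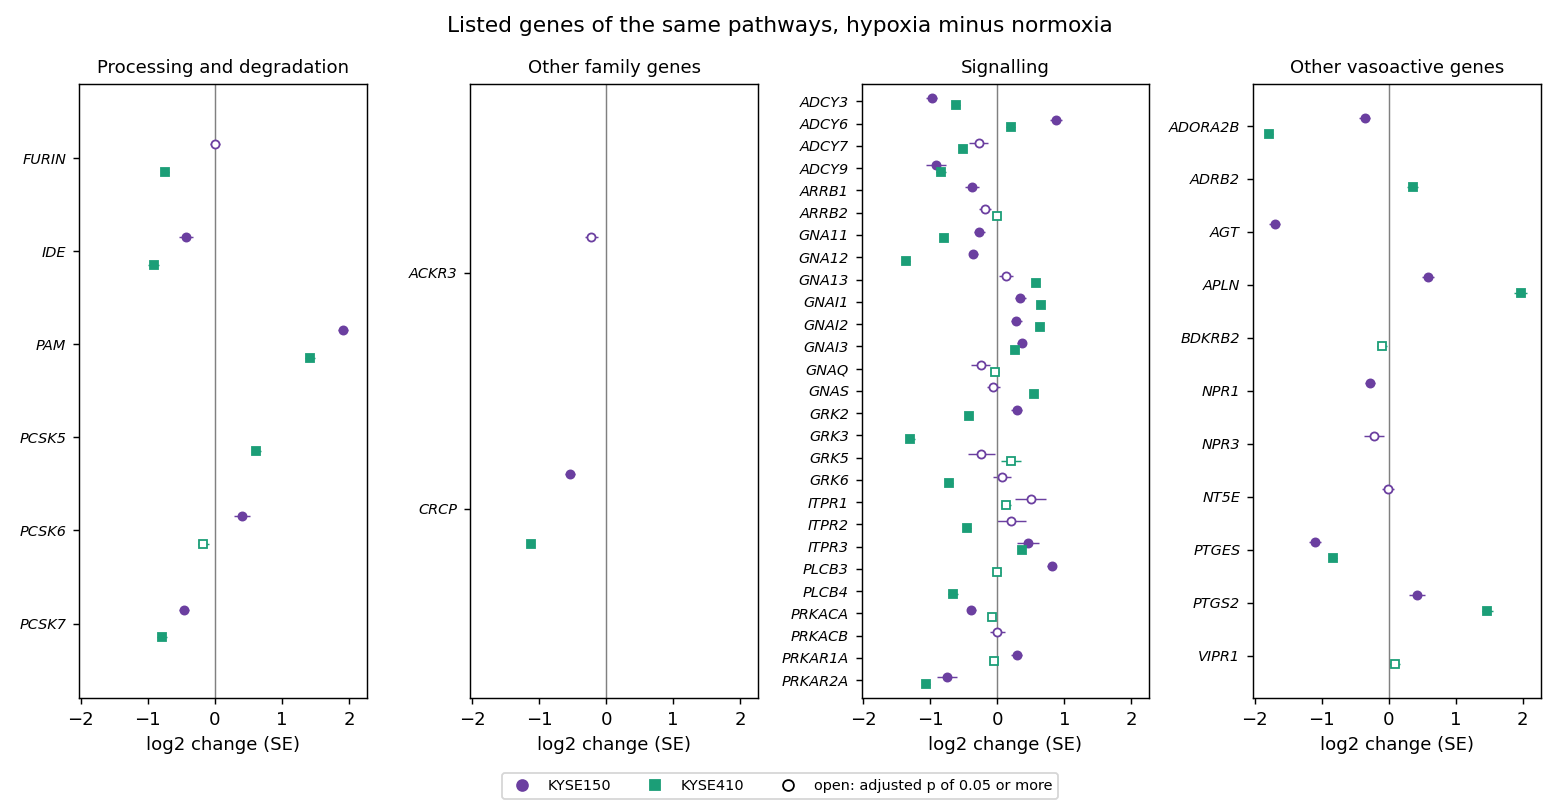
Points give the log2 change of each tested gene of the 4 lists (KYSE150 as purple circles, KYSE410 as green squares) with SE bars; open symbols have an adjusted p of 0.05 or more. PAM and APLN lie to the right and CRCP and PTGES to the left of 0 in both lines. APLN passed the fitting limit in each line only through hypoxia, and GRK3 passed it in KYSE410 only through normoxia.

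The genes whose levels followed each ligand most closely over the 12 libraries were named by Pearson's r of log2(FPKM + 1). The libraries share line and oxygen level, so a high r mostly restates the 4 group means, and no p is given. EDN2 was closest to PCK1, a gluconeogenic enzyme (r = 0.9985; 0.199 and 32.7 FPKM in KYSE150 normoxia and hypoxia, and at most 0.00415 on average in KYSE410). SPAG5, PPFIA4, AKAP17A and MXD3 followed (r = 0.9945 to 0.9845). ADM was closest to HILPDA, a lipid droplet protein induced by hypoxia (r = 0.9958; 10.6 to 142 FPKM in KYSE150 and 7.13 to 472 in KYSE410), then GAPDH, NRM, RSRP1 and PRKCSH (0.9948 to 0.9921). EDN1 was closest to ATP2A1-AS1, SAMD11, CSGALNACT1, PAIP1 and TMEM139 (0.9965 to 0.9955). ADM2 was closest to MEPCE, LCMT2, PGBD1, GFPT1 and CENPBD1 (0.9941 to 0.9884), with GFPT1, the entry enzyme of hexosamine synthesis, at 67.6 and 14.2 FPKM in KYSE150 normoxia and hypoxia.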

How the data were processed

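Polyadenylated RNA of 2 lines at 2 oxygen levels was sequenced (4 groups of 3 libraries). HISAT2 2.2.1, fastp 0.22.0 and bcl2fastq 2.20 are named, with build hg38, in the submitters' processing notes. The strand mode, annotation or quantifier is not given in the sources used here. Normalized values, 1 table per line, were deposited by the authors, taken as FPKM from their size and column sums, since no header or label names the unit. Depth is unknown: low values showed no steps of whole reads (the commonest ratio between normoxia replicates 1 and 3 was shared by 20 of 4781 low genes, 0.418%, in KYSE150 and 11 of 4643, 0.237%, in KYSE410), so no counting interval is given.

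From these values, limma 3.58.1 in R 4.3.3 (empirical Bayes, mean trend) modelled log2(FPKM + 1) wherever a gene averaged 1 FPKM or more, within each line and jointly over genes in both tables. Calls used a Benjamini-Hochberg adjusted p under 0.05 over all genes tested. The fits were tested on simulated data. The members, lists and tests were chosen with earlier results of these data known. Named genes are the 9 members, up to 4 called genes per list and line by size of change, and the 5 genes most alike to each ligand gene. Positions are from GENCODE 29 (hg38) and promoters from RefSeq (GRCh38.p14). Tables and plots used pandas 2.3.3, numpy 2.4.6 and matplotlib 3.10.9 under Python 3.11.15. Alternatives covered pseudocount, filter, scaling, trend, replicate block, transcript length and each library left out.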

Additional observations from a re-analysis of the deposited data

Results flagged for a closer look

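Some responses to hypoxia differed between the lines in the joint fit; each value below is the log2 response of KYSE410 minus that of KYSE150. Single values were not screened for outlying libraries, since groups of 3 are too small for that rule. In KYSE410 the oxygen level and the inferred library set cannot be told apart, for every value here.

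For the members, which were chosen with these responses known, the values are descriptions: EDN2 -5.01, ECE1 -0.41, EDN1 0.62, ADM2 0.97 and ADM 1.28. The value for ADM2 changed sign with the pseudocount.

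Over the 4 pathway lists 43 genes were tested, of which 10 were called higher and 17 lower in KYSE410 (limma, adjusted p under 0.05). This called share of 62.8% was near the 63.3% of all 12653 genes (27.3% higher and 36.0% lower), so nothing is read from the count. The 15 called genes that the report names by their change within a line follow. Some of the other called genes differed by more than several of these, such as GRK6 (-0.79) and GRK2 (-0.72), named after their values were seen. KYSE410 had the higher value for APLN (1.38), PTGS2 (1.05), ADCY3 (0.36) and PTGES (0.27). It had the lower value for ADORA2B (-1.43), GRK3 (-1.30), GNA12 (-0.99), PLCB3 (-0.81), FURIN (-0.75), ADCY6 (-0.67), CRCP (-0.58) and PCSK6 (-0.57). It was also lower for PAM (-0.48), IDE (-0.48) and PCSK7 (-0.33). The median over all genes moved from -0.09 to 0.0 with median-of-ratios scaling and to -0.29 with a common sum. Small values, such as those of PCSK7, ADCY3 and PTGES, are near the size of that shift and are not given under other scalings. PAM rose in both lines, so its value describes a smaller rise in KYSE410. GRK3 was below 1 FPKM in both KYSE150 groups (0.223 and 0.228 FPKM) and went from 3.49 to 0.825 in KYSE410. It entered the joint fit only through KYSE410 normoxia, so its value is a description without a test.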

How the results depend on the processing

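Counts of genes called stayed within 1.5 times the reported ones under every alternative run. Leaving out each library in turn gave 6635 to 9435 calls in KYSE150, 9725 to 9799 in KYSE410 and 7450 to 8676 for the difference in response; the highest KYSE150 count came without normoxia replicate 2. The replicate numbers are shared between oxygen levels, but deviations of same-numbered libraries correlated at only -0.069 to 0.084, so the numbers were not taken to pair the libraries. With the number as a block, 7757, 9931 and 7848 genes were called in those comparisons, and 9957 and 10089 between lines in normoxia and hypoxia. The normoxic ADM difference between lines turned from 0.04 to -0.01 with median-of-ratios scaling (limma, adjusted p = 0.9461) and lay between -0.05 and 0.14 with a library left out, negative without KYSE150 normoxia replicate 1. The ADM2 difference in response turned to -0.27 with a pseudocount of 0.1, a setting that gives more weight to values near 0; ADM2 was at or near 0 in KYSE410 hypoxia. PCSK6 and PTGS2 in KYSE150 also missed the threshold without the filter on low values (adjusted p = 0.0611 and 0.0508). Member differences ranged over the other alternatives from 5.22 to 6.80 for EDN2, 3.27 to 3.42 for ADM, -3.54 to -2.11 for ADM2, -0.97 to -0.78 for EDN1 and -1.11 to -0.60 for EDNRA in KYSE150, and from 4.26 to 4.80 for ADM and -0.49 to -0.09 for EDN1 in KYSE410. Differences in response between lines moved by over 1.5 times for ECE1 alone among the members other than ADM2, from -0.41 to between -0.65 and -0.23. In KYSE410, PCSK7 moved to -0.52 once the trend on transcript length was removed. Depth, being unknown, limits what can be said of values near 0, as for CALCRL, RAMP1 and EDN2 in KYSE410.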

Other observations

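A few listed genes below the fitting limit differed between groups and are given as values only. CALCB, a calcitonin gene-related peptide gene, was between 0.389 and 0.566 FPKM in KYSE150 normoxia and between 0.0485 and 0.255 in KYSE410 normoxia, and was listed at 0 in all 6 hypoxic libraries. NOS2, the inducible nitric oxide synthase, was at 0 to 0.0189 FPKM in KYSE150 normoxia and 0.203 to 0.243 in hypoxia, and was listed at 0 in KYSE410 hypoxia. These genes were picked after their values were seen.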
